A study of Homo sapiens with 5 samples.

Results

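The library of WI-38 cells transfected with HuR siRNA was compared with the library of WI-38 cells transfected with control siRNA, across genes. A gene was measured when its FPKM (fragments per kilobase of transcript, scaled to the mapped fragments of its library), summed over the annotated transcripts of that gene, averaged at least 5 over these 2 libraries. No transcript of a measured gene carried the deposited status FAIL or lacked a row in the libraries compared. Of 49766 genes with an annotated row, 7634 reached the mean of 5, 327 of those had a FAIL row and 20 had a missing row only, which left 7287 measured genes. Just inside the minimum lay SLX1A, a subunit of a DNA structure-specific nuclease, with a mean of 5.002 FPKM, and the histone variant gene H2AFY2 with 5.008. Just outside it lay SYCP1, a meiotic chromosome protein gene, and NSMCE4A, which encodes a subunit of the SMC5/6 complex, both with a mean of 4.998.

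WI-38 is an established line of diploid human lung fibroblasts with a limited number of population doublings (PDL). Total RNA was sequenced from 5 libraries, 1 per group: untransfected cultures at PDL 15 and PDL 55, and PDL 15 cultures given HuR siRNA, AUF1 siRNA or a control siRNA. Ribosomal RNA was removed and the cDNA was amplified from a small amount of RNA before the libraries were made. The labels used here state neither the sequence and dose of the siRNAs nor the time after transfection. With 1 library per group there is no spread between replicates and no test was run. The only error given is the 95% bounds deposited with each FPKM, summed over a gene's transcripts, and these describe uncertainty within a library only.

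HuR, encoded by ELAVL1, is a ubiquitous RNA-binding protein with RNA recognition motifs. It binds U-rich and AU-rich sequence, mostly in introns and 3′ untranslated regions (3′UTRs), and is best known for protecting bound mRNAs from decay and for influencing their translation. AUF1, encoded by HNRNPD, binds related AU-rich sequence and is known mostly for promoting decay. In fibroblasts, mRNAs described as HuR-bound include those of cyclins, growth factors and secreted proteases and their inhibitors.

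ELAVL1, the gene targeted by the siRNA (ENSG00000066044, chr19:8023458-8070529 in hg19), was lower in the HuR siRNA library, but by a small amount. It was listed at 9.72 FPKM with HuR siRNA (bounds 8.59 to 10.8), 11.8 with control siRNA (9.38 to 14.1), 16.7 at PDL 15, 17.7 with AUF1 siRNA and 12.2 at PDL 55. On annotated transcripts the HuR siRNA library was the lowest of the 5, and its bounds overlapped those of the control siRNA library. Ratios are given throughout as log2 of (FPKM + 1) over (FPKM + 1), minus the median of that ratio over all measured genes. On that scale ELAVL1 differed by -0.69 from control siRNA and by -0.70 from PDL 15, and the bounds placed the first of these between -1.10 and -0.25. Neither passed the 2-fold difference, a ratio of 1 or more in either direction, that is used below.

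The small difference in ELAVL1 rested on which rows were summed. The main transcript, ENST00000351593, was listed at 8.09 FPKM with HuR siRNA and 10.1 with control siRNA, and the other one, ENST00000407627, at 1.63 and 1.69. The deposited tables also hold transcripts assembled from the reads, without an annotated name. With assembled rows that lie in the gene added, ELAVL1 stood at 14.8 FPKM with HuR siRNA and at 11.8 with control siRNA, a relative ratio of -0.17. PDL 55 stood at 12.2 FPKM, so the HuR siRNA library was then not the lowest. The neuronal paralogues ELAVL2, ELAVL3 and ELAVL4 were near 0 in the HuR siRNA library and were listed at 1.10, 0.0309 and 1.52 FPKM with control siRNA. The siRNA label could therefore not be checked firmly from the target mRNA, and HuR protein was not measured in these files.

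**Figure D1:**
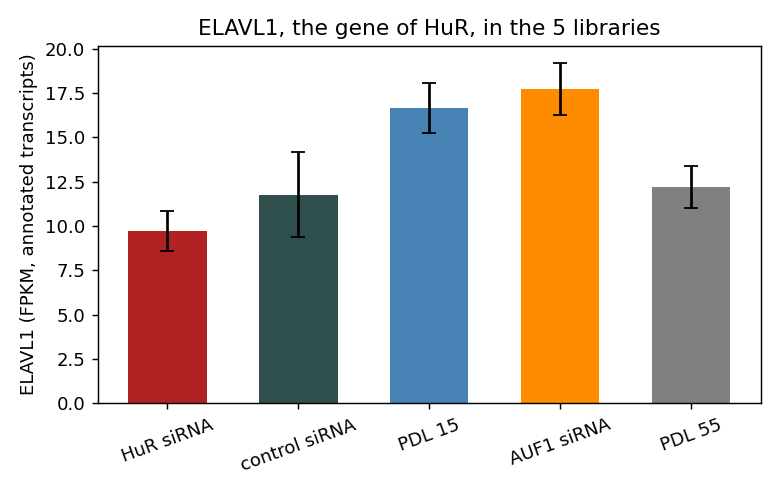
ELAVL1 in the 5 libraries, in FPKM summed over its annotated transcripts; bars are the deposited values and lines the deposited 95% bounds within each library. The HuR siRNA bar is the lowest at 9.72 FPKM, and its line overlaps that of the control siRNA library at 11.8.

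Most fibroblast markers were present, at levels that differed between libraries in both directions. Type I collagen chain gene COL1A2 was listed at 831 FPKM with HuR siRNA, 198 with control siRNA and 816 at PDL 15, and the intermediate filament gene VIM at 2305, 0 and 1534. The collagen receptor gene DDR2 was listed at 0, 64.6 and 41.7 FPKM, N-cadherin gene CDH2 at 4.90, 14.3 and 43.6, and the surface glycoprotein gene THY1 at 84.6, 154 and 0. All marker levels in this paragraph are on annotated rows, and some rested on that choice. With assembled rows DDR2 stood at 77.2, 64.6 and 75.9 FPKM, so it was not absent with HuR siRNA, and its ratios were -0.23 and 0.03. The ratio of CDH2 against control siRNA was then 0.053. Over the 19 measured fibroblast markers the median ratio of HuR siRNA, as defined above, was 0.34 against control siRNA and -0.46 against PDL 15, with 2 higher and 5 lower past 2-fold against PDL 15. Of the 24 markers with rows in all libraries 2 were under 1 FPKM with HuR siRNA, 6 with control siRNA and 3 at PDL 15. Of 22 epithelial markers 19 were under 1 FPKM in the HuR siRNA library, and their summed level was 14.9 FPKM with HuR siRNA, 12.1 with control siRNA and 11.7 at PDL 15. The 13 endothelial markers summed to 17.5, 21.6 and 18.3 FPKM, with CDH5 at 0.16 or less in each. TEK was the highest of them, at 10.8, 6.81 and 13.9 FPKM, and FLT1 was listed at 3.72, 3.45 and 1.11. The 18 blood cell markers summed to 21.1, 33.0 and 6.02 FPKM, with CD68 the highest of them and HBA1 at 0 in each. The 14 neuronal markers summed to 67.3, 79.7 and 97.8 FPKM, and SYT1, SNAP25 and TUBB3 carried most of that. The synaptic vesicle gene SYT1 was not low, at 28.1, 38.3 and 53.9 FPKM. Whether these levels have a part in any difference below was not tested.

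The control siRNA library stood apart from the others. Annotated transcripts held 19.6% of its FPKM weighted by length, against 71.0% to 74.9% in the other 4 libraries, and its coverage per FPKM was 0.3003 against 1.14 to 1.29. Its measured genes differed from PDL 15 in large numbers: 1022 genes (14%) were at least 2-fold higher and 759 (10.4%) at least 2-fold lower. Each gene's ratio was therefore also taken against PDL 15. The 2 ratios share the HuR siRNA library, so they are not independent. The median gene stood 0.44 above control siRNA as deposited and -0.02 from PDL 15, and all ratios below are relative to those medians.

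Against control siRNA, 716 genes (9.83%) were at least 2-fold higher with HuR siRNA and 828 (11.4%) at least 2-fold lower. Without the subtraction of the median the split was 1555 higher and 483 lower. Against PDL 15, 742 genes (10.2%) were higher and 543 (7.45%) lower. Genes past 2-fold in the same direction against both references numbered 209 higher (2.87%) and 207 lower (2.84%). A further 507 were higher and 621 lower against control siRNA only, and 16 and 54 of these were 2-fold apart from PDL 15 in the opposite direction. In bulk RNA of this kind, fewer cells that express a gene and less RNA per cell cannot be told apart.

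Many of the most extreme ratios came from genes listed at 0. Of the genes past 2-fold against both references, 64 of the higher and 56 of the lower were listed at 0 in at least 1 of the 3 libraries, and so were all 15 of the highest-ranked genes and 14 of the 15 lowest-ranked. TPM4, a tropomyosin that lines actin filaments, was listed at 581 FPKM with HuR siRNA and at 0 in both references. With the assembled rows its ratios were -0.67 against control siRNA and -0.89 against PDL 15, the opposite direction. The cytoplasmic actin gene ACTG1 was listed at 0 with HuR siRNA, 412 with control siRNA and 640 at PDL 15, and its ratios with assembled rows were 1.70 and 1.56. IGFBP5, a secreted binder of insulin-like growth factors, turned in the same way, from 0 FPKM against 93.0 and 41.2 to ratios of 1.503 and 1.33. TIA1, an RNA-binding protein of stress granules that also binds U-rich sequence, was listed at 21.9 FPKM with HuR siRNA and 0 in both references. Its FPKM was the same with assembled rows added, so those rows were no check of its direction. Its ratios were then 4.04 and 4.52. The caveolin gene CAV2 was listed at 43.8 FPKM against 0 and 0, with ratios of 2.27 and 2.32 on all rows.

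A smaller set was kept apart for description after these values were seen. Its genes were past 2-fold against both references on annotated rows and again with assembled rows, were not listed at 0 in the 3 libraries, and had bounds that overlapped neither reference. It held 82 higher genes (1.13%), 61 of them protein coding, and 57 lower genes (0.782%), 43 of them protein coding. Many of these genes, GDF15, TIMP1, HMOX1 and PTMA among them, had the same FPKM in the 3 libraries with assembled rows added. Their ratios could then move only with the median, so the second call was no check of the first. The HuR siRNA library had the highest FPKM of all 5 libraries in 75 of the 82 higher genes, and the lowest in 32 of the 57 lower genes. It was the highest for 1913 and the lowest for 503 of all 7287 measured genes. Because the set was chosen on its ratios to both references, the 75 and 32 follow in part from the choice. The 1913 and 503 over all genes are therefore no test of them. The values of the set below are likewise a description. The choice did not use the AUF1 siRNA library, though a ratio to it shares the HuR siRNA library; the median of that ratio was 0.71 for the higher genes and -0.89 for the lower genes.

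**Figure D2:**
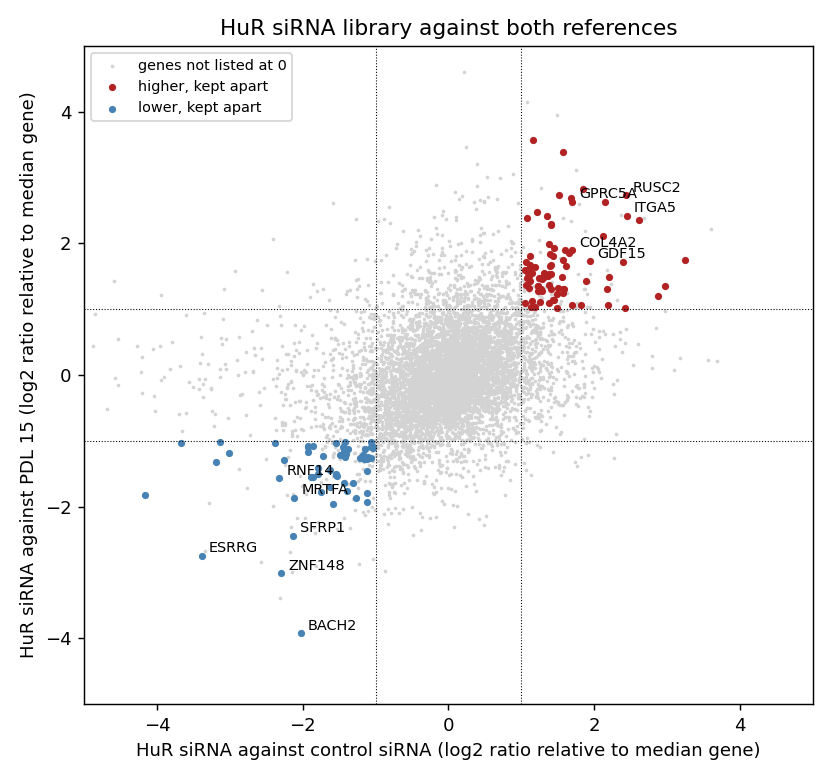
Each point is a measured gene not listed at 0 in the 3 libraries, with its log2 ratio of HuR siRNA to control siRNA (horizontal) and to PDL 15 (vertical), each relative to the median gene; dotted lines mark 2-fold. Red and blue points are the 82 higher and 57 lower genes kept apart, and 16 genes, 2 of them kept apart, lie beyond the axes at 5.

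The genes kept apart are described here by known role, a grouping made after their values were seen. The higher set included an integrin chain and several matrix genes. ITGA5, the integrin alpha chain of the fibronectin receptor (chr12:54789049-54813050, hg19), was listed at 49.9 FPKM with HuR siRNA (bounds 48.7 to 51.2), 5.86 with control siRNA, 8.62 at PDL 15, 30.0 with AUF1 siRNA and 24.3 at PDL 55. Its ratios were 2.45 against control siRNA and 2.42 against PDL 15, and the AUF1 siRNA and PDL 55 libraries lay between. With assembled rows ITGA5 stood at 175, 33.4, 27.5, 84.4 and 24.3 FPKM in that order, so PDL 55 was then the lowest, and its ratios were 1.87 and 2.63. COL4A2, a chain of basement membrane collagen, was listed at 259, 58.1, 69.9, 154 and 39.7 FPKM in the same order of libraries, with ratios of 1.70 and 1.90. SPARC, a matricellular collagen-binding protein, was listed at 1447, 135, 574, 608 and 897 FPKM. Its ratio was 2.97 against control siRNA and 1.35 against PDL 15, so the size depended on the reference. With assembled rows these were 2.07 and 1.34. LOX, which crosslinks collagen and elastin, was listed at 95.2, 26.7, 17.3, 59.1 and 18.9 FPKM. ADAMTS2, the protease that trims the amino end of procollagen, was listed at 64.1, 9.98, 14.2, 17.7 and 5.68 FPKM and stood clear of the other 4 libraries. The collagen chaperone gene SERPINH1 was listed at 143, 39.6, 49.5, 113 and 20.4 FPKM. Its ratio of 1.38 against control siRNA turned to -4.98 when transcripts with the deposited status LOWDATA were left out.

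Other higher genes encode a protease inhibitor, a coagulation factor, a cytokine, a surface peptidase and an activin binder. TIMP1, an inhibitor of matrix metalloproteinases (chrX:47441712-47446188, hg19), was listed at 2292 FPKM with HuR siRNA (bounds 2260 to 2324), 647 with control siRNA (626 to 667), 900 at PDL 15, 1093 with AUF1 siRNA and 245 at PDL 55, with ratios of 1.38 and 1.37. With assembled rows TIMP1 at PDL 55 stood at 1442 FPKM, still below HuR siRNA. F3, the tissue factor that starts blood coagulation, was listed at 123, 33.2, 24.7, 41.6 and 112 FPKM, and here PDL 55 was close to HuR siRNA. GDF15, a stress-induced cytokine of the TGF-beta family, was listed at 20.2, 3.04, 5.46, 17.1 and 7.01 FPKM, with the AUF1 siRNA library next to the HuR siRNA library. DPP4, a cell surface peptidase, was listed at 53.3, 11.7, 14.2, 30.8 and 96.4 FPKM, and PDL 55 exceeded HuR siRNA. FSTL3, a binder of activins, was listed at 13.2, 2.44, 2.84, 2.72 and 6.09 FPKM.

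Lipid, lysosome and amino acid transport genes were also in the higher set. ELOVL1, an elongase of very long chain fatty acids, was listed at 74.4 FPKM with HuR siRNA, 11.4 with control siRNA, 11.4 at PDL 15, 28.1 with AUF1 siRNA and 37.8 at PDL 55, with ratios of 2.16 and 2.62, which became 1.34 and 1.92 with assembled rows. NPC1, which exports cholesterol from lysosomes, was listed at 21.5, 5.33, 4.73, 7.66 and 13.2 FPKM. The lysosomal sulfohydrolase gene SGSH was listed at 22.2, 5.89, 7.05, 11.5 and 12.7 FPKM. SLC7A5 and SLC3A2 encode the light and heavy chains of a transporter of large neutral amino acids. SLC7A5 was listed at 12.5, 3.57, 3.37, 7.62 and 1.60 FPKM, and SLC3A2 at 114, 17.5, 54.5, 112 and 69.1. Against AUF1 siRNA the ratio of SLC3A2 was -0.16, so HuR siRNA did not stand above that library. HMOX1, the inducible heme oxygenase, was listed at 20.9, 5.65, 8.01, 7.60 and 4.96 FPKM, and HuR siRNA was the only high library. RUSC2, an adaptor of vesicle transport, ranked first of the higher genes kept apart by the smaller of its ratios. It was listed at 15.7 FPKM with HuR siRNA (bounds 14.8 to 16.7) and between 1.27 and 2.66 in the other 4 libraries, with ratios of 2.44 and 2.73. With assembled rows it stood at 62.1 FPKM with HuR siRNA, 9.16 with control siRNA and 9.31 at PDL 15, and its ratios were 2.15 and 2.62. The riboflavin transporter gene SLC52A2 was listed at 32.2 FPKM against 3.75 to 6.69 in the others.

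Several of the lower genes kept apart encode transcription factors or chromatin proteins. ESRRG, an orphan nuclear receptor, was listed at 0.507 FPKM with HuR siRNA (bounds 0.321 to 0.692), 10.6 with control siRNA (5.69 to 15.5), 9.26 at PDL 15, 5.83 with AUF1 siRNA and 0.899 at PDL 55. Its ratios were -3.39 and -2.75, and PDL 55 was nearly as low as HuR siRNA. With assembled rows ESRRG stood at 5.35 FPKM with HuR siRNA, 10.6 with control siRNA, 16.3 at PDL 15, 5.83 with AUF1 siRNA and 5.45 at PDL 55, and its ratios shrank to -1.35 and -1.44. BACH2, a transcriptional repressor of the basic leucine zipper class, was listed at 3.58, 12.8, 69.6, 9.03 and 3.11 FPKM, and PDL 15 was the high library. MRTFA, the actin-regulated coactivator of serum response factor, was listed at 10.3, 35.1, 40.7, 41.3 and 13.4 FPKM, with ratios of -2.12 and -1.86, or -1.65 and -1.25 with assembled rows. The zinc finger gene ZNF148 was listed at 1.99, 9.82, 23.5, 2.25 and 2.91 FPKM, so the AUF1 siRNA and PDL 55 libraries were low as well on annotated rows. With assembled rows ZNF148 stood at 6.95, 13.9, 26.8, 2.25 and 36.5 FPKM, and PDL 55 was the highest; its ratios were then -1.39 and -1.80. DAXX, a chaperone of histone H3.3, was listed at 3.93, 8.83, 14.6, 12.9 and 4.53 FPKM. Its ratio of -1.44 against control siRNA turned to 0.23 on fragment mass, that is FPKM weighted by transcript length. RAD21, a cohesin subunit, was listed at 13.2, 26.3, 47.5, 16.99 and 15.9 FPKM, and RAD54B, a homologous recombination factor, at 3.39, 10.2, 11.7, 11.6 and 2.81.

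SFRP1, a secreted antagonist of Wnt signalling (chr8:41119481-41167016, hg19), was lowest in the HuR siRNA library. It was listed at 36.2 FPKM with HuR siRNA (bounds 34.8 to 37.7), 119 with control siRNA (111 to 128), 205 at PDL 15, 197 with AUF1 siRNA and 185 at PDL 55, with ratios of -2.13 and -2.45. With assembled rows SFRP1 stood at 70.4 FPKM with HuR siRNA, still the lowest of the 5, and its ratios were -1.24 and -1.52. PTMA, the small acidic nuclear protein prothymosin alpha, was listed at 128, 360, 292, 211 and 60.5 FPKM. Its ratios were -1.93 and -1.17. It has many processed copies, and the pseudogene PTMAP2 was also lower, at 21.7 FPKM against 85.9 and 46.1, so reads may be shared between them. SLIT2, a secreted guidance ligand, was listed at 47.2, 76.3, 133, 50.7 and 22.9 FPKM, and PTX3, a secreted pattern recognition protein, at 11.3, 18.7, 46.3, 22.4 and 52.3. OIP5-AS1, a long noncoding RNA also called cyrano that is described as a HuR-binding RNA, was listed at 3.40, 7.64, 9.62, 6.13 and 8.09 FPKM, with ratios of -1.41 and -1.25, or -2.19 and -2.03 with assembled rows. The lowest ratio belonged to MTRNR2L10, a nuclear copy that resembles mitochondrial ribosomal RNA, at 1.45 FPKM. The control siRNA library held 1677 and PDL 15 held 12707. It was listed at 1.24 FPKM with AUF1 siRNA and 0 at PDL 55, so the 2 references were the high libraries. Its value is uncertain because near-identical copies share reads.

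**Figure D3:**
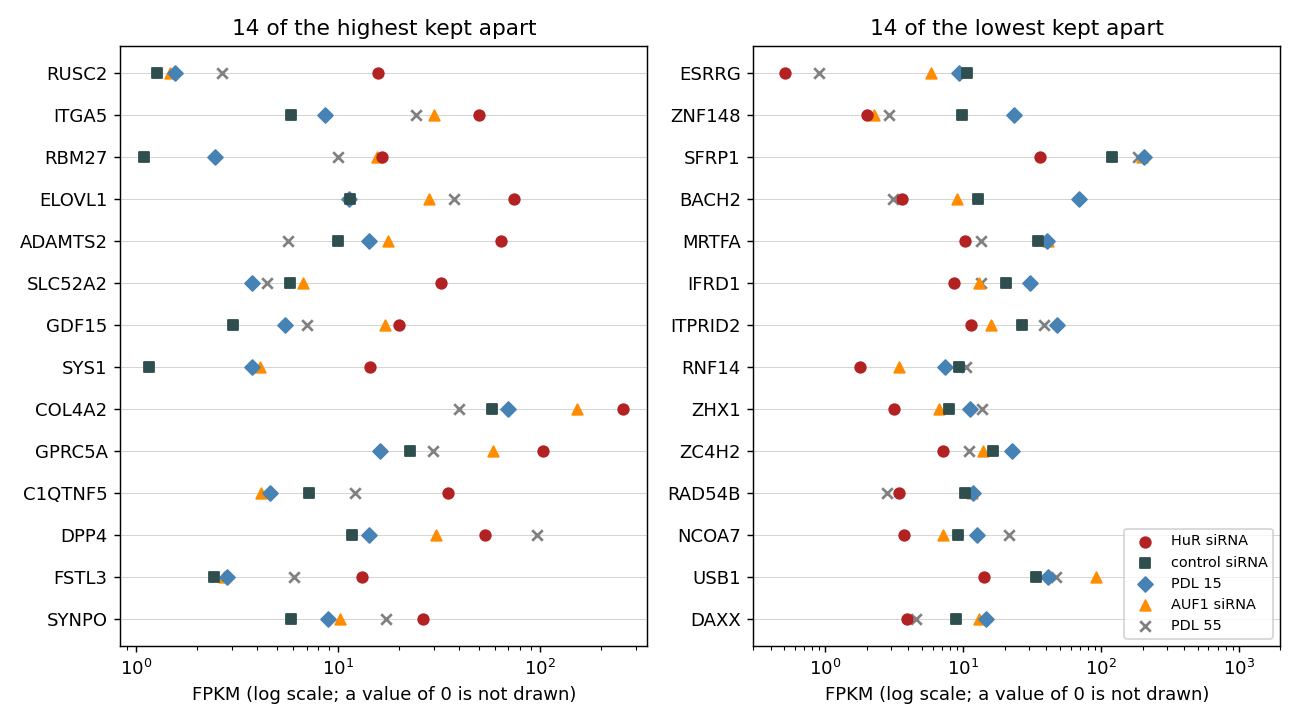
FPKM on a log scale in the 5 libraries for 14 of the highest and 14 of the lowest genes kept apart, ordered from top to bottom by the smaller of their ratios to control siRNA and PDL 15. The red HuR siRNA points lie to the right of the dark control siRNA and blue PDL 15 points on the left panel and to their left on the right panel, by the choice of genes, while AUF1 siRNA and PDL 55 points vary.

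The 3′UTRs of the kept-apart genes were searched for sequence of the kind HuR is known to bind, and windows around the motif TATTTAT are shown for higher and lower genes that carry it. Sequences run 5′ to 3′ as DNA letters of the sense strand, from the GENCODE 29 transcripts, with capitals at the motif. Their positions are in GRCh38, a different build from the hg19 positions above. Each lies in the 3′UTR of the longest coding transcript of its gene. The higher genes are RUSC2 (chr9:35561830-35561858, plus strand), GDF15 (chr19:18389037-18389065, plus), GPRC5A, a retinoic acid-induced membrane receptor (chr12:12916545-12916573, plus), and FSTL3 (chr19:681750-681778, plus). The lower genes are ESRRG (chr1:216504282-216504310, minus), BACH2 (chr6:89931742-89931770, minus), IFRD1, a regulator of transcription during differentiation (chr7:112475741-112475769, plus), and ITPRID2, an actin-interacting protein gene (chr2:181929779-181929807, plus).
RUSC2: gtctgtttatgTATTTATttatttattta
GDF15: ccaaacagctgTATTTATataagtctgtt
GPRC5A: taagaggcttgTATTTATgagctctttgc
FSTL3: tcatcccctgtTATTTATtgccacagcag
ESRRG: ttctataagatTATTTATatatgtaagtg
BACH2: caattcgtactTATTTATggacaaaattc
IFRD1: tggtcataattTATTTATgaagacagcaa
ITPRID2: gaaaagcctaaTATTTATttgtatgtcag

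The motif TATTTAT occurred 4 times in the 516 nt 3′UTR of RUSC2, overlapping copies included, and 3 times in the 241 nt of GDF15. ESRRG held 3 in 3693 nt and BACH2 held 2 in 5879 nt, so genes of both directions carried it. The search covered the sense strand of the transcript. The motifs were ATTTA and TTTTTTT besides the longer TATTTAT, and every match to the longer motif also holds the first. Of 6074 measured coding genes with a 3′UTR, 76.4% held ATTTA, 37.7% held TATTTAT and 56.3% held TTTTTTT. Of the 61 higher genes kept apart, 73.8% held ATTTA, 36.1% held TATTTAT and 36.1% held TTTTTTT. Of 41 lower genes, 87.8% held ATTTA, 48.8% held TATTTAT and 65.9% held TTTTTTT. Their median 3′UTR lengths were 1140 nt for the higher and 1548 nt for the lower genes, against 1465 nt for all, and a longer 3′UTR holds more matches. Per kilobase, TTTTTTT stood at 1.60 in the higher genes, 2.21 in the lower genes and 2.50 in all genes. ATTTA stood at 1.91, 3.01 and 2.40 per kilobase, and TATTTAT at 0.350, 0.417 and 0.317, higher in both sets than in all genes. Over all genes past 2-fold against both references the contrast was smaller. The 170 lower ones held ATTTA in 75.9% (2.39 per kilobase), TATTTAT in 42.9% and TTTTTTT in 60.6%. The 169 higher ones held ATTTA in 70.4% (1.98 per kilobase), TATTTAT in 36.1% and TTTTTTT in 47.3%. A match describes the letters only and says nothing of binding.

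mRNAs that earlier work describes as HuR-bound included higher and lower genes. Of 68 such genes 42 were measured, 24 had a mean under the minimum (CCND1, MCL1, PTGS2 and IL6 among them) and 2 had a FAIL row. Against control siRNA their median ratio was 0.10, with 7 higher and 6 lower past 2-fold, beside a median of 0, 9.83% higher and 11.4% lower over all genes. Against PDL 15 the median was 0.25, with 9 higher and 2 lower, beside 10.2% and 7.45% over all genes. Among those past 2-fold against both on annotated rows were HMOX1, PLAU and SLC2A1, all higher, and PTMA, which was lower. HMOX1 and PTMA belonged to the set kept apart.

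Other HuR-bound members depended on the rows or on the reference. PLAU, the urokinase plasminogen activator, was listed at 64.1 FPKM with HuR siRNA, 8.28 with control siRNA, 11.2 at PDL 15, 48.6 with AUF1 siRNA and 12.5 at PDL 55. With assembled rows its ratios moved from 2.37 and 2.43 to 0.31 and -0.63. SLC2A1, the glucose transporter GLUT1, was listed at 57.0, 10.8, 22.7, 102 and 29.4 FPKM, and the AUF1 siRNA library was higher than HuR siRNA. With assembled rows the ratios of SLC2A1 moved from 1.86 and 1.31 to 0.65 and 1.41, so it was then within 2-fold of control siRNA. PLAUR, the urokinase receptor, was listed at 83.6, 34.8, 22.0, 56.8 and 25.3 FPKM, with ratios of 0.80 and 1.90. VEGFA, the vascular growth factor, was listed at 39.4, 13.2, 23.7, 16.3 and 17.6 FPKM, with ratios of 1.07 and 0.73.

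Some cell cycle and survival mRNAs of that list were past 2-fold lower against control siRNA but not against PDL 15. UBE2C, a ubiquitin-conjugating enzyme of mitotic exit, was listed at 26.9 FPKM with HuR siRNA, 62.3 with control siRNA and 13.3 at PDL 15, with ratios of -1.62 and 0.99. BIRC5, the mitotic protein survivin, was listed at 6.19, 15.3 and 4.85 FPKM, with ratios of -1.62 and 0.32. With assembled rows these became -0.93 and 1.04, so BIRC5 was then past 2-fold against PDL 15 only. CCND2, a D-type cyclin, was listed at 3.67, 7.27 and 1.40 FPKM, with ratios of -1.27 and 0.98. XIAP, a caspase inhibitor, was listed at 7.18, 15.6 and 11.1 FPKM, with ratios of -1.47 and -0.55. The other 24 measured members lay within 2-fold of both references. Among them were CCNA2, cyclin A2, at 5.73, 5.76 and 5.75 FPKM, CCNB1, cyclin B1, at 22.2, 16.6 and 22.3, MYC at 11.4, 10.7 and 10.3, and HIF1A, a hypoxia-induced transcription factor, at 121, 80.1 and 103. ACTB, beta-actin, was listed at 6380, 2493 and 4847 FPKM.

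**Figure D4:**
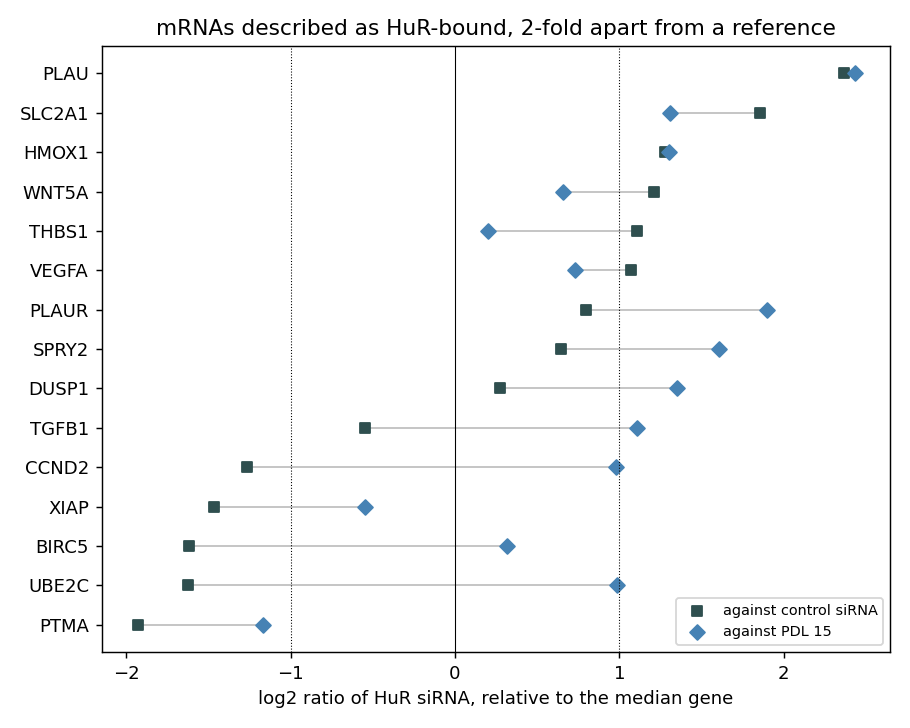
Log2 ratios of HuR siRNA to control siRNA (squares) and to PDL 15 (diamonds), relative to the median gene, for mRNAs described as HuR-bound that were past 2-fold against either reference and not listed at 0. The ratios drawn are on annotated rows. HMOX1, PLAU and SLC2A1 lie above 1 on both, PTMA below -1 on both, and UBE2C, BIRC5, CCND2 and TGFB1 have opposite signs. With assembled rows the ratios of TGFB1 were -5.00 and 1.09.

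Secreted inflammatory and senescence factors had the highest median of the lists with at least 5 measured genes, against both references. Of 58 such genes 27 were measured, with a median of 0.75 against control siRNA (10 higher, 2 lower) and 0.73 against PDL 15 (12 higher, 4 lower). The counts of this and the following lists stand beside 9.83% higher and 11.4% lower over all genes against control siRNA, and 10.2% and 7.45% against PDL 15. Past 2-fold against both were 6 higher and 2 lower, beside 2.87% higher and 2.84% lower over all genes. Those shares also apply to the lists below. TIMP1 and GDF15 were among the higher ones, in the set kept apart. IGFBP7, a secreted binder of insulin-like growth factors, was listed at 180 FPKM with HuR siRNA, 54.3 with control siRNA, 24.6 at PDL 15, 77.9 with AUF1 siRNA and 357 at PDL 55. On all rows its ratios were 0.72 and 2.83. CXCL12, a chemokine, was lower, at 7.26, 12.7, 21.5, 9.82 and 0.920 FPKM, with ratios of -1.17 and -1.42. The median of the list between control siRNA and PDL 15 was 0.06, near that of all genes.

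Matrix and contractile genes were high against control siRNA and near the median gene against PDL 15. The 48 measured matrix genes had medians of 0.68 and 0.21, with 19 higher and 3 lower against control siRNA and 8 higher and 8 lower against PDL 15. The control siRNA library itself stood at -0.50 relative to PDL 15 over these genes. COL1A1 was left out because the HuR siRNA table has no complete set of rows for it. FBLN5, an elastic fibre protein, was lower, at 5.32 FPKM with HuR siRNA against 19.5 and 50.1, with ratios on all rows of -0.75 and -1.57. COL6A3, a type VI collagen chain, was listed at 77.7, 124 and 332 FPKM, and its ratios of -1.11 and -2.06 became 1.26 and 0.22 with assembled rows. The 34 contractile genes had medians of 0.68 and 0.13, and 8 of them were listed at 0 in a library.

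Ribosomal protein genes moved with the reference as well. The 70 measured members had a median of 0.52 against control siRNA, with 16 higher and 4 lower, and of -0.35 against PDL 15, with 2 higher and 6 lower. Between control siRNA and PDL 15 their median was -0.91. RPS15, of the small subunit, was the ribosomal gene in the set kept apart. It stood at 89.1 FPKM with HuR siRNA, 158 with control siRNA, 333 at PDL 15, 192 with AUF1 siRNA and 246 at PDL 55. The processed pseudogene RPS15P5 was kept apart as higher, at 9.38 FPKM with HuR siRNA, 2.70 with control siRNA and 3.94 at PDL 15. Whether reads are shared between RPS15 and RPS15P5 was not tested. Histone genes showed the lowest median against control siRNA. The 21 measured had a median of -1.54, with 13 lower and 1 higher, but of -0.20 against PDL 15, with 3 lower and 1 higher, and control siRNA stood at 0.93 relative to PDL 15. The linker histone genes HIST1H1A, at 8.78, 14.1 and 20.2 FPKM, and HIST1H1B, at 2.95, 7.47 and 7.18, were lower against both. The same 2 genes stood at 0.445 and 0.228 FPKM at PDL 55. In the list 3 genes were lower and 1 was higher against both references. The histone gene H2BFS, outside the list, was kept apart as higher, at 41.9 FPKM with HuR siRNA, 8.76 with control siRNA and 19.7 at PDL 15.

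Cell division lists followed a like pattern. The 44 mitosis genes had medians of -0.35 against control siRNA (1 higher, 10 lower) and 0.08 against PDL 15 (3 higher, 2 lower). The 22 S phase genes had medians of -0.40 (1 higher, 6 lower) and -0.03 (1 higher, 4 lower). RRM1, the large subunit of ribonucleotide reductase, was higher, at 25.8 FPKM with HuR siRNA, 7.38 with control siRNA and 9.59 at PDL 15, and was listed at 0 in the AUF1 siRNA and PDL 55 libraries. RFC3, a clamp loader subunit, was lower, at 3.85, 6.43 and 8.97 FPKM. The 38 measured lysosome genes had medians of 0.47 (8 higher, 1 lower) and 0.35 (10 higher, 2 lower). NPC1, SGSH and the proton pump accessory gene ATP6AP1 were kept apart as higher. ATP6V1A, a catalytic subunit of the same pump, was lower at 8.81 FPKM against 16.9 and 30.0.

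Cholesterol synthesis and uptake genes were lower mainly against PDL 15. The 16 measured had a median of -0.94 against PDL 15, with 7 lower and 1 higher, and of -0.27 against control siRNA, with 3 lower and 0 higher. LSS, lanosterol synthase, was listed at 5.38 FPKM with HuR siRNA, 8.64 with control siRNA, 43.9 at PDL 15, 18.6 with AUF1 siRNA and 27.5 at PDL 55. The 24 unfolded protein and amino acid stress genes had medians of 0.26 (4 higher, 0 lower) and 0.20 (3 higher, 0 lower), counts of a few genes beside 9.83% and 10.2% higher over all genes. CHAC1, a glutathione-degrading enzyme of the stress response, was listed at 24.6, 7.90, 12.4, 19.01 and 9.73 FPKM, with ratios of 1.08 and 0.96. Among 28 measured AU-rich and RNA stability binding proteins, 5 were higher and 0 lower against control siRNA, beside 9.83% higher over all genes, and the median was 0.23, against -0.14 with PDL 15 as the reference. The 2 that were higher against both, TIA1 and PCBP1, were listed at 0 in both references. The 34 mRNA decay enzymes had medians of -0.09 and -0.12 and 0 members past 2-fold against both.

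**Figure D5:**
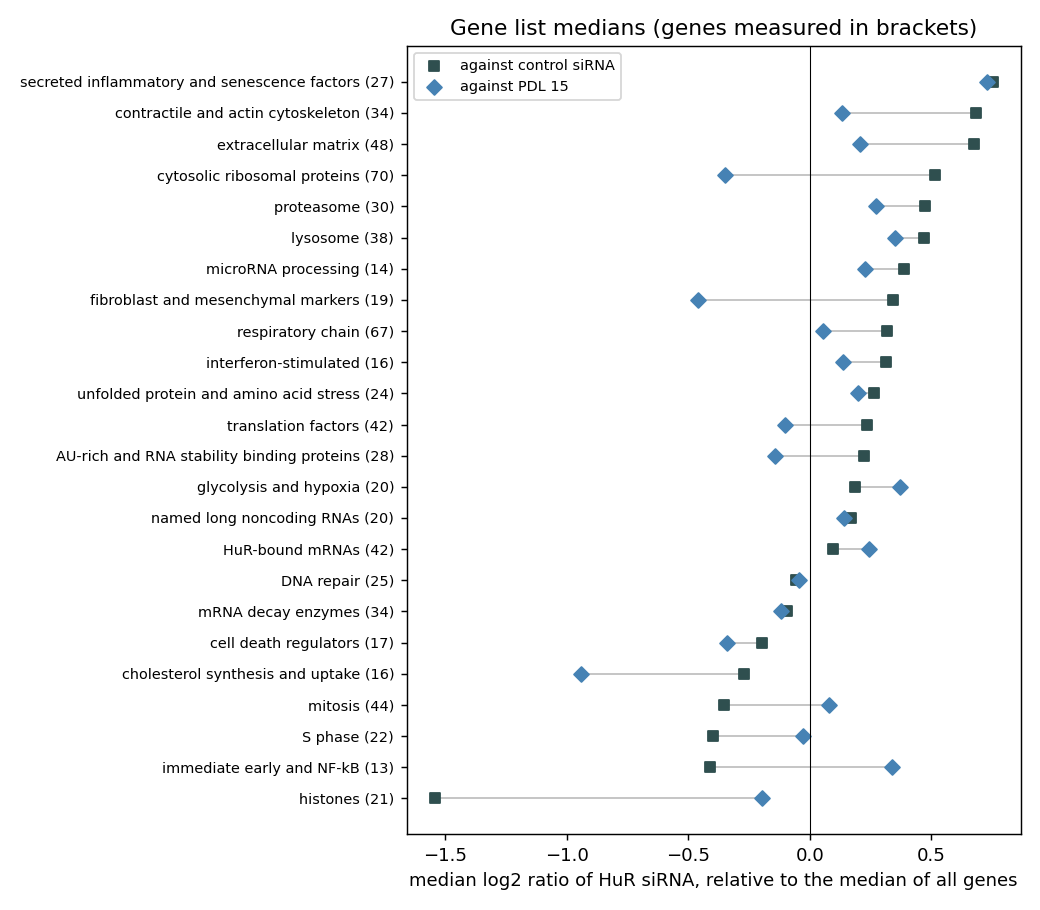
Median log2 ratio of HuR siRNA to control siRNA (squares) and to PDL 15 (diamonds) for gene lists with at least 5 measured genes; 0 is the median of all 7287 genes and the number measured is in brackets. Secreted factors lie at 0.75 and 0.73, while histones (-1.54 and -0.20) and ribosomal proteins (0.52 and -0.35) shift between references.

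Some genes differed from control siRNA alone on annotated rows. MYL6, a myosin light chain, was listed at 0 with control siRNA and at 339 FPKM with HuR siRNA, 374 at PDL 15, 200 with AUF1 siRNA and 352 at PDL 55. LASP1, an actin-binding adaptor, was also listed at 0 with control siRNA and at 129 with HuR siRNA and 90.9 at PDL 15. With assembled rows the ratios of MYL6 and LASP1 against control siRNA were 0.41 and 0.31.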

How the data were processed

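Per the submitters' processing notes, TopHat2 2.0.6, Cufflinks 2.0.2 and Cuffdiff were used with hg19. The deposited values are FPKM with 95% bounds, coverage (a signal never used to compare genes) and length per transcript. Read counts, strand and annotation release were not given in the sources used here. Overlapping or antisense genes therefore cannot be separated, and depth in fragments is unknown. Annotated transcripts (160485, of which 98.1% matched a gene of GENCODE 29 or the files) were summed per gene with Python 3.11.15 and pandas 2.3.3. A pseudocount of 1 FPKM understates ratios of low genes. Sums with assembled rows added those lying in 1 gene.

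Members and lists were chosen with earlier results of these data known. Named were the 15 highest and 15 lowest genes past 2-fold against both references, with bounds overlapping neither, ranked by the smaller ratio, 5 each against control siRNA alone, ELAVL1 and its paralogues, HuR-bound genes past 2-fold, and up to 4 per list; the kept-apart genes, and others of the lists or below their ranks, were chosen after values were seen. HuR-bound and other lists came from general knowledge. Alternatives tried are in the closing section. Some named genes are not reported here.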

Additional observations from a re-analysis of the deposited data

How the results depend on the processing

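No paired analysis was possible because each group had 1 library, and none could be left out. The 2-fold counts against control siRNA (716 higher, 828 lower) and against both references (209 and 207) moved as follows. A mean of at least 1 FPKM gave 1538, 1990, 408 and 399; no filter gave 2609, 2154, 582 and 388. Ratios as deposited gave 1555, 483, 316 and 136. A 1.5-fold limit gave 1476, 1569, 562 and 606, and a 3-fold limit 301, 426, 71 and 87. With PDL 15 or AUF1 siRNA in place of control siRNA, 543 or 392 were lower. After seeing the data, requiring the both-reference call on assembled rows too left 116 and 108, and requiring also no listing at 0 and bounds apart left 82 and 57. Genes whose FPKM stayed the same with assembled rows could change there only through the median. ELAVL1 moved to -0.17 with assembled rows. Of 54 named genes past 2-fold and listed at 0 in a library, 18 turned with assembled rows (TPM4, ACTG1 and IGFBP5 among them), as did COL6A3. Those genes are outside the next count, which started from ratios to control siRNA. Turns of a ratio to PDL 15, such as PLAU from 2.43 to -0.63 with assembled rows, are outside it too. Of 1386 ratios of named genes not listed at 0, over all alternatives, 22 reversed, and of 324 list medians 12. With assembled rows these included RACGAP1 0.16, ERCC2 -0.058, RPL8 0.43, EIF2S2 1.04, PFKFB3 1.60, STAT2 0.16 (0.12 with 1 transcript per gene) and CDH2 0.053. Without LOWDATA rows they were USB1 0.77, SERPINH1 -4.98, HIST1H2BK -0.022 and the interferon-stimulated list -0.51. On fragment mass DAXX was 0.23. Against PDL 15 they included BIRC5 0.32, CCND2 0.98, UBE2C 0.99, mitosis 0.079, ribosomal proteins -0.35, immediate early and NF-kB genes 0.34 (0.032 as deposited, 0.063 without filter) and fibroblast markers -0.46. As deposited, mitosis was 0.088 and S phase 0.045. Against AUF1 siRNA they were RBM27 -0.12, SLC2A1 -1.02, UBE2C 0.21, EXOSC4 -0.13, NDRG1 0.42, SLC3A2 -0.16, contractile genes -0.0028, microRNA processing -0.065 and fibroblast markers -0.15. The causes were not tested. Without counts the number of fragments behind a value is unknown. The same FPKM stood for less coverage in the control siRNA library (0.3003 per FPKM) than in any other library (1.14 to 1.29). This limits every ratio to control siRNA.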
